A study of Mus musculus with 23 samples.

Results

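Open chromatin in 3T3-L1 preadipocytes was compared between day -1 and day 0 in libraries that received a non-targeting siRNA, called scramble. These 8 libraries, 4 from each day, were taken by their labels from the 23 libraries of the series. 3T3-L1 is an established line of mouse fibroblast-like preadipocytes. All of its cells, controls included, were reverse-transfected on day -3, while sub-confluent, with 50 nM siRNA in Lipofectamine RNAiMAX. Nuclei for ATAC-seq, which reads out where a transposase can cut DNA, were taken 48 hours later on day -1 and 72 hours later on day 0. The same 2 days with siRNA against the histone demethylase gene Kdm5c gave 7 further libraries, 4 from day -1 and 3 from day 0, which were set beside the scramble change. No untransfected cells were analysed here.

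3T3-L1 cells are grown until they touch and leave the cell cycle, and by convention day 0 is the day on which the hormone mix that starts fat cell formation is given. The days before it are therefore the step from dividing to confluent, arrested preadipocytes. Open promoters tend to stay open in many states of a cell, while open sites inside and between genes, many of them enhancers, differ more from one state to another. In later fat cell formation Cebpb and Cebpd act early and switch on Pparg and Cebpa, which in turn drive the genes of lipid storage.

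Counts over the authors' peaks came to 11562925 to 14913397 per scramble library on day -1 and 10197468 to 12814609 on day 0, and most of them lay in mitochondrial peaks. Nuclear peaks, which carry the comparison, held 781309 to 1156416 counts per library on day -1 and 1097388 to 1325428 on day 0. The mitochondrial share was 92.3% ± 1.01 (SD, n = 4) on day -1 and 88.8% ± 1.77 (n = 4) on day 0, and the libraries of the days overlapped. The difference of -3.48 percentage points had p = 0.0571 in an exact two-sided permutation test, or 0.0857 after Benjamini-Hochberg adjustment over the 3 library shares tested. Of the 14 fibroblast markers, 10 had a promoter-class peak on day -1 and 11 on day 0. Of 8 macrophage and leukocyte markers, 1 had one on day -1 and 2 on day 0, and of 8 endothelial markers 1 did on each day. None of the 8 epithelial and 8 skeletal muscle markers did on either day.

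Each day was counted over its own set of peaks, so the days had to be joined before any comparison. Of 31966 nuclear peaks on day -1 and 37051 on day 0, 16986 pairs were matched 1 to 1, each peak covering at least 50% of the other. That is 53.1% and 45.8% of the 2 sets. Unmatched peaks were narrow and thin, with median widths of 208 bp on day -1 and 186 bp on day 0 against 558 and 582 bp for matched peaks. Their median was 9.25 and 9.0 counts per library, against 32.5 and 35.5 in matched peaks. Peaks to which the authors gave a gene, called promoter class here, matched more often (79.1% and 75.5%) than the others (41.9% and 34.7%). Matched peaks held 82.0% ± 0.438 (SD, n = 4) of nuclear counts on day -1 and 78.6% ± 0.282 (n = 4) on day 0. This difference of -3.36 points had p = 0.0286, the smallest that an exact permutation test of 4 against 4 can give, and 0.0857 after adjustment. The promoter-class share of nuclear counts was 45.5% ± 1.1 and 45.6% ± 0.399 (exact permutation p = 0.771). No label ties the libraries of the days to a common batch, so the day, its batch and its peak set cannot be told apart in any value below. The labels do not say whether replicates were separate cultures, so the p-values reflect only how far these libraries vary among themselves, and that variation may be technical. In bulk libraries, fewer cells with an open site and less opening per cell cannot be told apart.

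From day -1 to day 0, matched peaks that lost accessibility outnumbered those that gained it with nuclear totals, and the balance moved with the scaling. A value here is the count per kb of that day's peak and per 1000000 nuclear counts of the library, called density below. A change is called when the quasi-likelihood F test of edgeR gives a Benjamini-Hochberg adjusted p under 0.05. With nuclear totals, 6.87% of the 16237 peaks tested were called, 79 higher on day 0 (0.487%) and 1036 lower (6.38%), and the median tested peak moved by -0.16 on the log2 scale. TMM scaling, which sets the bulk of peaks to no average change, moved that median to 0.01 and called 3.66%, 286 higher (1.76%) and 308 lower (1.9%). The share of calls that were higher was thus 7.09% with nuclear totals and 48.1% with TMM. Dividing by all counts, mitochondrial ones included, turned the balance to 1867 higher and 20 lower, with the median peak at 0.37. The log2 changes below are those with nuclear totals unless TMM is named, so they include this shift of -0.16, and a peak is said to rise or fall only where both nuclear totals and TMM called it in that direction. This held for 2.38% of those tested, 79 that rose and 308 that fell. All 79 peaks called higher with nuclear totals were also called higher with TMM. All 308 called lower with TMM were also called lower with nuclear totals. In effect, nuclear totals set the rises and TMM the falls, so the balance of 79 to 308 is in part set by the rule.

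Of the 308 peaks that fell, 251 were peaks to which the authors gave no gene on either day. No test between the classes was made. Of 7557 promoter-class peaks tested, 42 rose and 56 fell, or 0.556% and 0.741%. Of 8620 peaks with no authors' gene, 37 rose and 251 fell, or 0.429% and 2.91%. The median log2 change was -0.11 in the promoter class and -0.23 in the others with nuclear totals, and 0.06 and -0.06 with TMM. Nuclear totals called 324 promoter-class peaks lower (4.29%), and TMM called 174 higher (2.3%) and 56 lower, against 107 higher and 251 lower among the others. Among peaks with no authors' gene, those inside a gene had 34 higher and 132 lower TMM calls of 3910, and those over 10 kb from any gene 44 and 83 of 2974. Peaks within 1 kb of either end of a gene had 13 higher and 9 lower of 724. In the plot of change against abundance, the called peaks with no authors' gene lie mainly below the bulk. Leaving out 1 library moved the number that rose from 79 to 52 without day 0 replicate 3 and 43 without day 0 replicate 4. The number that fell went from 308 to 167 and 184 without day -1 replicates 2 and 4, and to 150, 164 and 192 without day 0 replicates 2, 3 and 4.

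**Figure D1:**
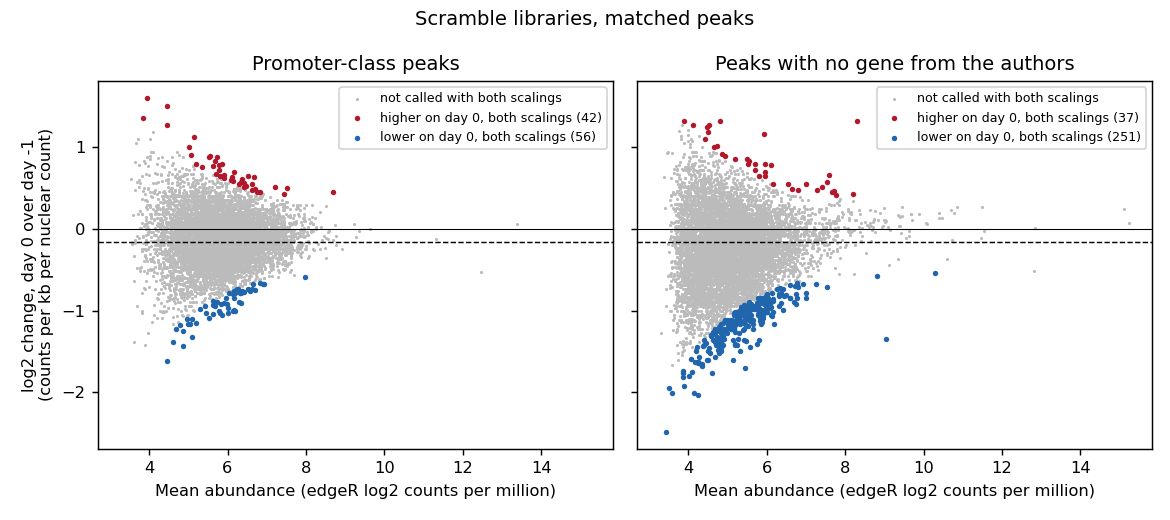
Each point is a matched peak in the scramble libraries: the log2 change in counts per kb per nuclear count, day 0 over day -1, against mean abundance in edgeR log2 CPM, for promoter-class peaks (left) and peaks with no authors' gene (right). Coloured points were called with both scalings (42 higher and 56 lower on the left, 37 and 251 on the right), and the dashed line is the median change, -0.16.

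The change per kb moved with how the width of a peak differed between the 2 peak sets. Peaks whose day 0 width was 0.5 to 0.7 of their day -1 width had a median TMM log2 change of 0.23 (1491 peaks), and those 1.5 to 2 times as wide had -0.28 (1590 peaks). Peaks with nearly equal widths, 0.909 to 1.1, had 0.06 (4820 peaks). The median width ratio was 0.725 among the 79 peaks that rose, 1.31 among the 308 that fell and 1.03 among all tested. Within pairs whose widths differed by less than 1.1 times, 11 peaks rose and 67 fell. A fit over such pairs alone called 4 higher and 144 lower of 4822 with nuclear totals, and 18 and 54 with TMM. In the second fit, 10 promoter-class peaks were higher and 4 lower of 2552, against 8 higher and 50 lower of 2259 peaks with no authors' gene. With a correction of TMM values for the width ratio, 52 promoter-class peaks were higher and 5 lower, and 61 of the others higher and 112 lower. The rule for naming peaks therefore asked for similar widths on both days. Genes chosen in other ways are given with their widths or the day 0 to day -1 width ratio.

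**Figure D2:**
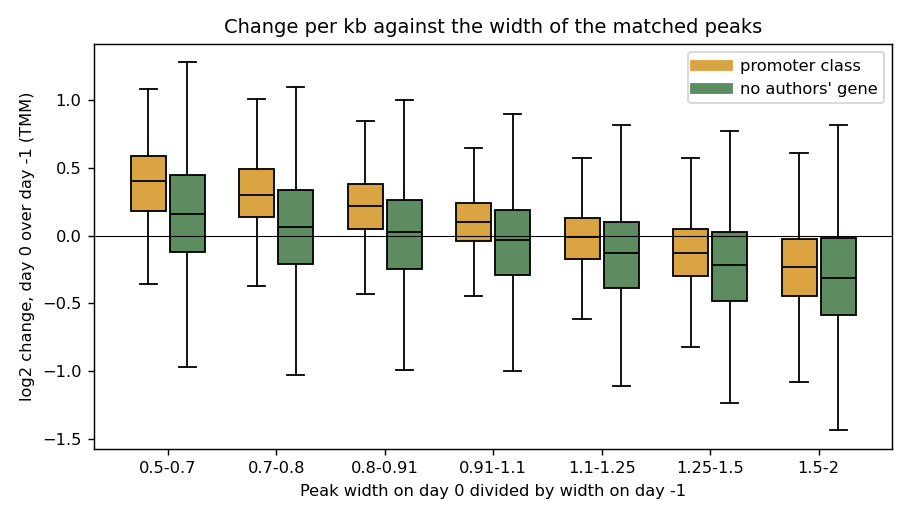
Boxes show the log2 change (TMM), day 0 over day -1, of matched peaks in bins of the width on day 0 divided by the width on day -1 (line: median; box: middle 50%; whiskers: 1.5 times the box). The median falls with the width ratio in both classes, and the promoter-class median lies above the other in each of the bins shown, though the boxes overlap.

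The promoter-class peaks that rose and met the naming rule were at Polr3c, Tmem115, Mcrs1, Kpna3, Zfp78, Zfp677 and Sertad2. The rule for naming asked for a call with both scalings, no overlap between the days, a narrower peak at least 0.8 as wide as the wider, and at least median abundance. In this direction 7 promoter-class peaks passed it. Their lack of overlap is therefore part of the choice. Over all tested peaks, the libraries of the days were apart in 1876 (11.6%). Zfp78 encodes a zinc finger protein. Its peak at 7:6362067-6363445 had densities of 84.4, 107, 97.5 and 97.0 on day -1 and 123, 148, 126 and 147 on day 0, in replicates 1 to 4. All day 0 libraries were above all day -1 libraries. The log2 change was 0.50 (SE 0.13, edgeR adjusted p = 0.0085) with nuclear totals and 0.67 (adjusted p = 0.00044) with TMM. The call with both scalings held in 7 of 8 fits that each left out a library, and ended without day 0 replicate 2, where the largest adjusted p was 0.052.

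Polr3c, a subunit of RNA polymerase III, which makes transfer RNAs and 5S ribosomal RNA, had the largest rise of the 7. Densities at 3:96727440-96728054 were 41.0, 70.4, 56.3 and 52.8 on day -1 and 89.7, 80.4, 95.5 and 88.3 on day 0, from 27 to 59 counts per library. The log2 change was 0.68 (SE 0.22, edgeR adjusted p = 0.039). Tmem115, a Golgi membrane protein, went from 64.0 ± 7.42 (SD, n = 4) to 101 ± 9.05 (n = 4), a change of 0.66 (SE 0.21, edgeR adjusted p = 0.031). Mcrs1, a nuclear protein of chromatin-modifying complexes, had a change of 0.59 (SE 0.19), and Kpna3, an importin that carries proteins into the nucleus, 0.51 (SE 0.17). The zinc finger gene Zfp677 had 0.46 (SE 0.15). Sertad2, a regulator of transcription linked to E2F proteins, had 103 ± 4.93 on day -1 and 140 ± 20.5 on day 0 (n = 4 each), a change of 0.43 (SE 0.14). These 6 calls were less firm than that of Zfp78: with nuclear totals and a library left out, Polr3c and Zfp677 passed in 1 of 8 fits, Tmem115, Mcrs1 and Kpna3 in 3, and Sertad2 in 4. The largest adjusted p without a library ranged from 0.098 for Tmem115 to 0.24 for Kpna3, while with TMM all 6 passed in at least 7 of 8 fits. The change stayed above 0 in every such fit.

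Under the same rule 6 promoter-class peaks fell, at Rnu2-10, Pate1, Snapin, Cttnbp2nl, Tarsl2 and Lrrc8b. Rnu2-10 is a gene for the U2 small nuclear RNA of the spliceosome. Its peak at 11:101658022-101659085 had densities of 56.3, 48.8, 34.9 and 46.7 on day -1 and 22.0, 18.9, 21.7 and 26.4 on day 0. Day 0 was lower in every library, with a log2 change of -1.09 (SE 0.24, edgeR adjusted p = 0.00081). U2 genes occur in several near-identical copies, so reads from one copy can be counted at another, and this value is uncertain to that extent. Pate1, a gene known from the male reproductive tract, had 66.9, 98.8, 66.8 and 76.7 on day -1 and 50.6, 38.7, 29.4 and 33.0 on day 0 at 9:35686739-35687544. Its change was -1.03 (SE 0.20, edgeR adjusted p = 0.0001), and -0.86 (adjusted p = 0.0038) with TMM. The call with both scalings ended without day -1 replicate 2, with an edgeR adjusted p of 0.059 by TMM.

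Snapin, a protein of vesicle fusion and lysosome positioning, had 115 ± 13.2 on day -1 and 61.4 ± 8.0 on day 0 (SD, n = 4 each), a log2 change of -0.91 (SE 0.21, edgeR adjusted p = 0.0012). Cttnbp2nl, a cortactin-binding protein, had 118 ± 13.0 and 64.8 ± 12.6, a change of -0.85 (SE 0.20). Tarsl2, related to threonyl-tRNA synthetase, had -0.79 (SE 0.18), and Lrrc8b, a subunit of the volume-regulated anion channel, had -0.67 (SE 0.16). With nuclear totals, all 6 promoter falls passed in each of the 8 fits that left out a library. With TMM they did not: Pate1 passed in 7, Rnu2-10 in 6, Snapin in 5, Tarsl2 in 4, and Cttnbp2nl and Lrrc8b in 2. The largest TMM adjusted p without a library was 0.26, for Lrrc8b.

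**Figure D3:**
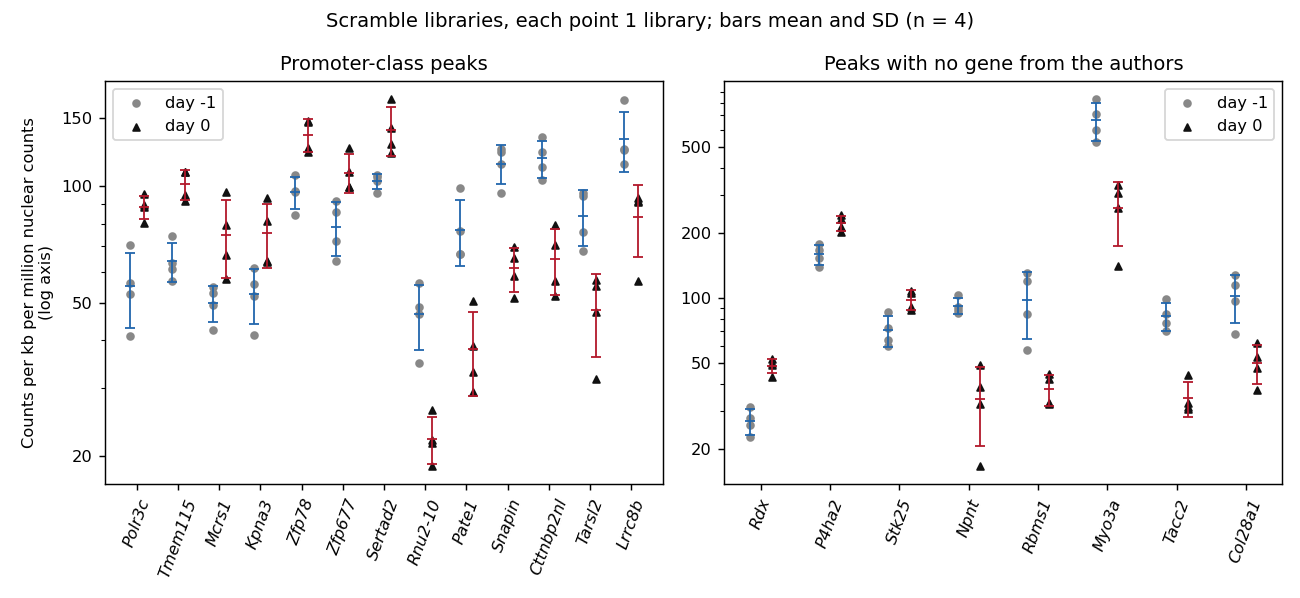
Counts per kb of peak and per 1000000 nuclear counts (log axis) in each scramble library for the 13 promoter-class peaks (left) and 8 of the other peaks (right) chosen by the naming rule, with circles for day -1 and triangles for day 0. Bars give the mean and SD (n = 4), and at every peak shown the libraries of the days do not overlap, which the rule required.

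The largest of the named falls lay at peaks with no authors' gene. Of 40 such peaks that passed the rule in this direction, 5 of the 6 with the largest change are given here, and of 3 that rose, all. A peak inside Myo3a, a class III myosin known from sensory hair cells, at 2:22587395-22588299, had 599, 830, 712 and 526 on day -1 and 306, 260, 334 and 140 on day 0. Its log2 change was -1.35 (SE 0.12, edgeR adjusted p = 3.4e-26), and its widths of 904 and 907 bp were nearly equal. The next peak inside the gene, 2:22588662-22590179, 1517 bp wide on both days, had 280 ± 49.4 and 188 ± 21.4 (SD, n = 4 each), a change of -0.57 (SE 0.12, edgeR adjusted p = 0.00035). The first peak passed with both scalings whichever library was left out. The second, chosen after its values were seen, did so in 3 of 8 such fits. Within each day the densities of this second peak ranked as the mitochondrial shares of the scramble libraries did. Those of the first peak did so on neither day. On day -1 the second peak had 237, 263, 351 and 268, with shares of 90.9, 92.2, 93.2 and 92.9%. On day 0 it had 167, 178, 194 and 216, with shares of 87.5, 88.0, 88.5 and 91.4%. The first peak had its lowest day 0 density, 140, in the library with the highest share, 91.4%. The part of mitochondrial reads in either peak was not tested.

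Further falls lay at Npnt, Rbms1, Tacc2 and Col28a1. Npnt, nephronectin, a matrix ligand of integrins, had a peak within 10 kb at 3:132871261-132871920 with 85.6, 87.9, 103 and 90.6 on day -1 and 49.2, 32.2, 16.7 and 38.9 on day 0. The log2 change was -1.41 (SE 0.22, edgeR adjusted p = 8.2e-07), from 14 to 67 counts per library. A peak inside the collagen gene Col28a1 had 102 ± 25.8 and 50.1 ± 10.3 (SD, n = 4 each), a change of -1.02 (SE 0.21), with widths of 608 and 605 bp. Peaks beside Rbms1, a nucleic acid binding protein, and inside Tacc2, a centrosomal protein, changed by -1.37 (SE 0.24) and -1.24 (SE 0.25). Npnt, Rbms1 and Tacc2 passed with both scalings in all 8 fits without a library, and Col28a1 in 7. Without day -1 replicate 2, Col28a1 had a TMM adjusted p of 0.078.

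The 3 rises under the rule at peaks with no authors' gene were at Rdx, P4ha2 and Stk25. Rdx encodes radixin, which links actin to the cell membrane. Its peak within 1 kb of an end of the gene, 9:52047819-52048756, had 27.8, 25.8, 31.4 and 22.7 on day -1 and 49.1, 49.8, 52.3 and 43.3 on day 0, a log2 change of 0.86 (SE 0.24, edgeR adjusted p = 0.014). The rise held with both scalings in 7 of 8 fits and ended without day -1 replicate 4 (edgeR adjusted p = 0.052). P4ha2, a prolyl hydroxylase that prepares collagen for folding, had a peak within 10 kb of 634 and 633 bp. It went from 159 ± 16.8 to 222 ± 17.6 (SD, n = 4 each), a change of 0.48 (SE 0.14, edgeR adjusted p = 0.017). A peak inside Stk25, a kinase, had 0.48 (SE 0.15). The last 2 passed with both scalings in 4 and 3 of the 8 fits without a library, with adjusted p up to 0.076 and 0.15.

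Further peaks stood out by their p-values and were picked with those values in view. Among them, Ank1 met the rule but was not among the 6 largest changes, and the others did not meet it. The rise with the smallest p was at 9:3023470-3025129, over 10 kb from any gene, with 80.6, 53.7, 62.5 and 44.5 on day -1 and 158, 165, 155 and 128 on day 0. Its log2 change was 1.33 (SE 0.13, edgeR adjusted p = 2e-20) although the peak was wider on day 0, 2558 against 1659 bp. Whether reads from repeated DNA were counted at this peak was not tested. A peak inside Il31ra, the receptor of interleukin 31, rose from 74.5 ± 24.5 to 170 ± 39.1 (SD, n = 4 each), by 1.17 (SE 0.20, edgeR adjusted p = 1.6e-05), but narrowed from 521 to 318 bp. A peak inside Runx2, the transcription factor of bone formation, had 113, 99.4, 123 and 101 on day -1 and 38.3, 41.0, 45.4 and 44.5 on day 0. It changed by -1.36 (SE 0.22, edgeR adjusted p = 8.2e-07), with widths of 522 and 717 bp. A peak inside Ank1, an ankyrin of the membrane skeleton, changed by -0.92 (SE 0.16), with widths of 1106 and 1212 bp. One inside Fmn1, an actin-nucleating formin, changed by -0.99 (SE 0.17), with widths of 603 and 785 bp. All 5 passed with both scalings whichever library was left out.

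Falls at more than 1 peak of a gene were rare. Of 9487 genes nearest to a tested peak, 10 had at least 2 peaks that fell and 0 had 2 that rose. Over all tested peaks 308 fell and 79 rose. How many of the 9487 genes had 2 or more tested peaks is not given here. The 10 were singled out after their values were seen. They were Ano6, Camk2d, Cdh13, Cpm, Dnm1, Ltbp1, Myo3a, Pcdh7, Prkca and Stard13. In Prkca, protein kinase C alpha, 2 of 5 tested peaks fell, with changes of -1.26 (SE 0.27; widths 462 and 475 bp) and -1.45 (SE 0.25; 922 and 658 bp). In Pcdh7, a protocadherin of cell contact, 2 of 6 fell, with changes of -1.05 (308 and 392 bp) and -1.13 (572 and 568 bp). In Cdh13, the cadherin that binds adiponectin, 2 of 7 did, with -1.57 (253 and 478 bp) and -1.24 (591 and 488 bp). Pcdh7 and Cdh13 each also had 1 peak called higher with TMM alone. In Ltbp1, which holds latent TGF-beta in the matrix, 2 of 5 fell, with -0.98 (905 and 812 bp) and -0.91 (437 and 445 bp). In Ano6, a phospholipid scramblase, 2 of 6 fell, with -0.96 (505 and 903 bp) and -0.99 (552 and 558 bp). Only 1 peak each of Prkca, Cdh13 and Ano6 passed with both scalings in all 8 fits without a library, and the other peaks of these 5 genes did so in 2 to 7. Cpm, carboxypeptidase M, had 17 tested peaks, of which 2 fell and 1 rose. It lies on chromosome 10 beside Mdm2, in a stretch of high density, where the promoter-class peak of Mdm2 had 2842 ± 76.9 on day -1 and 1972 ± 110 on day 0 (SD, n = 4 each), with widths of 1572 and 2298 bp.

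The gene lists, chosen with earlier results of these data known, held 496 genes, and 282 of them had a tested promoter-class peak. With both scalings, where nuclear totals in effect set the rises and TMM the falls, 0 of these rose and 5 fell. Nuclear totals called 0 higher and 16 lower, and TMM 8 higher and 5 lower, against 42 higher and 324 lower, and 173 and 56, of all 7482 genes tested. The 5 that fell were Plin4, Rrm2, Usp18, Lox and Hsp90aa1, each from another list. The first 4 had peaks 1.4 to 1.58 times as wide on day 0, and none of them was called when the width was left out of the fit (edgeR adjusted p = 0.06 for Plin4 and 0.45 to 0.87 for the others). The windows around the annotated starts of 2 of them follow, with those of the promoters named above whose calls were firmest in each direction, Zfp78 and Pate1. They come from RefSeq on GRCm38.p6, 250 bases before to 50 after the start, 5′ to 3′ on the gene's strand. Capitals mark matches, on either strand, to a motif. The TATA box was searched as TATAAA. The GC box was searched as GGGCGG, and the box known as CCAAT by those letters. The E-box was searched as CACGTG. The ETS motif was searched as CCGGAAG, and neither it nor the E-box has a match in the windows shown.
Zfp78, chr7:6363058-6363357, plus strand: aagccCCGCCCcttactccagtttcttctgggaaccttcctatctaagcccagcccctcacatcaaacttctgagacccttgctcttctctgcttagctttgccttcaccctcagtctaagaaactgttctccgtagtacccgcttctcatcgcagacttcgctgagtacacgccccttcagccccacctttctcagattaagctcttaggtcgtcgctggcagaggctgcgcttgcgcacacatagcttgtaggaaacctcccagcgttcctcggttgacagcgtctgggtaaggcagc
Pate1, chr9:35687322-35687621, minus strand: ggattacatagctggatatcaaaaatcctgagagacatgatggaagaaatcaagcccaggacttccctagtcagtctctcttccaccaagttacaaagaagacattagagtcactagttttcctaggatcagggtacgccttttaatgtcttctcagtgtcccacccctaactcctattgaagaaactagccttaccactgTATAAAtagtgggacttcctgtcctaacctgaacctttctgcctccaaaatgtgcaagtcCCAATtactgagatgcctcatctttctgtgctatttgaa
Plin4, chr17:56109733-56110032, minus strand: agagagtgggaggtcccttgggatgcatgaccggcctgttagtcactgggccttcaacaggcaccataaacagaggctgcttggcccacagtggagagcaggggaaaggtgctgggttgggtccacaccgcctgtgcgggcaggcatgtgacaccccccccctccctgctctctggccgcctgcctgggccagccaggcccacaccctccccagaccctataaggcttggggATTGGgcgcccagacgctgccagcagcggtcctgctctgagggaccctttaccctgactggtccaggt
Rrm2, chr12:24708004-24708303, plus strand: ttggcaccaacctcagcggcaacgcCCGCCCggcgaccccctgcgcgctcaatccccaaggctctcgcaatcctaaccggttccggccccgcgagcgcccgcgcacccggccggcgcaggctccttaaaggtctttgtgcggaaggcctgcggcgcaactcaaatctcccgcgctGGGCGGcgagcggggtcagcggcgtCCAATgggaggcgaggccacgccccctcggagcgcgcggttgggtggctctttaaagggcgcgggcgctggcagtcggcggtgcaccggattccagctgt
The Pate1 window is poor in CpG, with 1 against 13 in Zfp78, 7 in Plin4 and 40 in Rrm2, and it alone holds TATAAA, as do 13.6% of all 32841 windows of the table. The CCAAT box, in all but Zfp78, occurs in 37.4% of the windows, and the GC box, in Zfp78 and Rrm2, in 35.7%. These matches describe the letters only. Of the genes with a tested promoter-class peak, 5569 of 7482 had a window that overlapped it.

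In the lists of fat cell genes and their regulators, as among all genes tested (42 higher and 324 lower of 7482), few were called with nuclear totals. Plin4, which coats lipid droplets, fell with both scalings, 1 of 12 tested genes of mature adipocytes and lipid. Its peak at 17:56109668-56110201 had 127, 114, 142 and 125 on day -1 and 56.7, 57.6, 62.6 and 76.9 on day 0, a log2 change of -1.0 (SE 0.19, edgeR adjusted p = 5.2e-05). It passed with both scalings in all 8 fits without a library. Dgat1, which makes triglyceride, was called higher with TMM alone, at 0.63 (edgeR adjusted p = 0.036, against 0.13 with nuclear totals). Its peak was 1.26 times as wide on day 0. With nuclear totals the change was 0.46 with width in the fit and 0.79 without it (edgeR adjusted p = 0.002). Of 14 tested adipogenic transcription factors, Klf5 (width ratio 1.13) was lower with nuclear totals alone, 90.3 ± 13.3 against 63.7 ± 2.84 (SD, n = 4 each), or -0.50 (SE 0.15, edgeR adjusted p = 0.022). Cebpb had 104 ± 27.4 and 77.3 ± 12.2 (edgeR adjusted p = 0.064), Cebpd 44.6 ± 5.19 and 54.1 ± 5.38 (0.31), Pparg 53.3 ± 19.1 and 41.6 ± 11 (0.51), and Cebpa 54.0 ± 11.3 and 52.5 ± 9.26 (0.92). The libraries of the days overlapped at all 4. Among 12 preadipocyte and anti-adipogenic genes, Klf2 was called higher with TMM alone, at 0.58 (edgeR adjusted p = 0.018). Its width ratio was 0.69. With nuclear totals the change was 0.41 with width in the fit and -0.12 without it (edgeR adjusted p = 0.097 and 0.72). The median peak was at -0.1 in the fit without width.

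In the cell cycle lists, too, few promoters were called, against the same 42 higher and 324 lower of 7482 genes. Of 25 DNA replication genes 2 were lower with nuclear totals and 1 of these, Rrm2, also with TMM, and of 25 mitosis genes 0 were called. Rrm2, a subunit of ribonucleotide reductase, had 87.9, 84.4, 78.0 and 97.5 on day -1 and 45.1, 56.0, 56.4 and 47.1 on day 0, a log2 change of -0.77 (SE 0.17, edgeR adjusted p = 0.0011). It passed with both scalings in 4 of 8 fits without a library. The median TMM log2 change was -0.05 for DNA replication genes, 0.01 for mitosis genes, 0.11 for 10 cyclins and Myc genes and 0.11 for 24 cell cycle inhibitors and Rb family genes, against 0.06 for all genes. In the last list Mdm2 and Gas1 were lower with nuclear totals alone and E2f1 higher with TMM alone, with width ratios of 1.46, 1.44 and 0.758. With nuclear totals and no width in the fit, none of the 3 was called. The changes were then 0.02 at Mdm2, 0.03 at Gas1 and -0.10 at E2f1 (edgeR adjusted p = 0.95, 0.93 and 0.75). The median peak was at -0.1 in that fit. Among the cyclins and Myc genes, Ccna2 (width ratio 0.87) was higher with TMM alone. The 14 replication-dependent histone genes had the lowest list median, -0.20, with Hist4h4 (width ratio 1.18) lower with nuclear totals alone.

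Heat shock, matrix and interferon genes each had 1 member that fell. Hsp90aa1, the inducible HSP90, had 42.2, 60.8, 50.7 and 98.5 on day -1 and 21.0, 29.1, 30.8 and 36.6 on day 0 at 12:110703057-110703612. Replicate 4 of day -1 was the highest, and the log2 change was -1.1 (SE 0.28, edgeR adjusted p = 0.0047). Its widths were alike, 555 and 597 bp, but the call with both scalings held in 3 of 8 fits without a library, with adjusted p up to 0.13 with nuclear totals and 0.30 with TMM. Lox, which cross-links collagen, went from 64.7 ± 12.1 to 37.9 ± 8.17 and Usp18, which removes the ubiquitin-like ISG15, from 129 ± 15.8 to 78.2 ± 11.1 (SD, n = 4 each). Their changes were -0.79 (SE 0.20) and -0.73 (SE 0.16), held in 3 and 4 of 8 such fits. The medians of these lists with TMM were 0.06 over 15 genes, 0.02 over 16 and -0.08 over 13. Among 12 targets of YAP, TEAD and SRF the median was -0.09, with Vgll3 (width ratio 1.07) lower with nuclear totals alone, and among 12 genes of glucocorticoid, insulin and cAMP response it was -0.05, with Hk2 (1.49) and Irs1 (1.22) lower likewise.

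The other lists had members called with one scaling only. Cholesterol synthesis genes had a TMM median of 0.17 over 14 genes, with Msmo1 (width ratio 0.893) and Cyp51 (0.761) higher with TMM alone and Lss (1.85) lower with nuclear totals alone. Without width in the fit Lss was at 0.22 and was not called (edgeR adjusted p = 0.62). Of 16 clock genes, Cry2 (0.847) was higher with TMM alone, and of 27 cytosolic ribosomal protein genes Rps19 (0.856). Dusp6 (1.08) was lower with nuclear totals alone among 16 AP-1 and immediate early genes, and so was Hspa4 (1.96) among the heat shock genes. Without width Hspa4 was at 0.30 and was not called (edgeR adjusted p = 0.41). The 9 fibroblast markers tested had a median of -0.03 and 0 calls. Lyz2, the macrophage marker with a tested peak, had 371 ± 46.7 and 364 ± 5.88 (SD, n = 4 each). It lies on chromosome 10 at 117281376, where 3 of its peaks had densities of 371 to 469 on day -1.

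**Figure D4:**
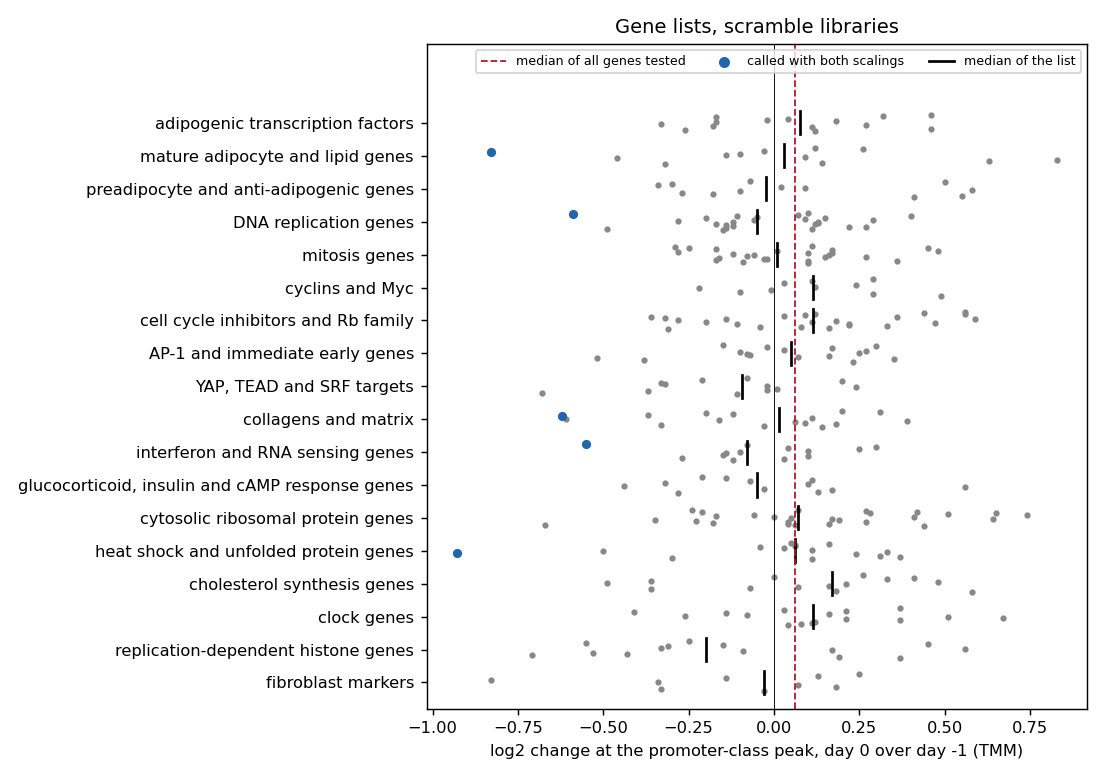
Points show the log2 change (TMM), day 0 over day -1, of the promoter-class peak of each tested gene in the 18 lists with at least 9 such genes; black bars are list medians and the dashed line the median of all 7482 genes, 0.06. The 5 blue points (Plin4, Rrm2, Lox, Usp18 and Hsp90aa1) were called lower with both scalings, and list medians lie between -0.20 and 0.17.

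Libraries with siRNA against Kdm5c, none of which entered the scramble fit, changed mostly in the same direction at these peaks. They share with the scramble libraries the days, the peak sets and whatever came with a day. Of the 79 peaks that rose in scramble, 74 were above 0 with TMM in the Kdm5c siRNA libraries, and of 307 that fell and were tested there, 293 were below 0. Of all 16069 peaks tested in both arms, 49.9% were above 0. That share was not matched for width, and both arms use the same widths. The median width ratio was 0.725 in the peaks that rose and 1.31 in those that fell. The median TMM change of the peaks that rose was 0.87 in scramble and 0.38 with Kdm5c siRNA, and of those that fell -0.90 and -0.48. The scramble values chose these peaks, so their larger size there is part of the choice. In the Kdm5c siRNA arm nuclear totals called 2.66% of 16424 peaks, 51 higher (0.311%) and 386 lower (2.35%). TMM called 1.56%, 135 higher (0.822%) and 121 lower (0.737%). The 437 calls with nuclear totals came to 150 without day 0 replicate 1 of that arm, 156 without replicate 2 and 239 without replicate 4.

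The test of the difference between arms called 0 of 16839 peaks in edgeR, with 866 at an unadjusted p under 0.05, and 0 with TMM, with 840. With Kdm5c siRNA, the peak inside Myo3a had 669, 651, 981 and 492 on day -1 and 266, 269 and 227 on day 0, a log2 change of -1.46 (edgeR adjusted p = 7.2e-22). The peak at 9:3023470 changed by 1.09 (edgeR adjusted p = 1.9e-11). Tacc2 had -0.01 with Kdm5c siRNA against -1.24 in scramble, a difference of 1.23 with an adjusted p of 0.86. Rdx had -0.25 against 0.86, a difference of -1.11, also at 0.86. Polr3c had 0.02 against 0.68, a difference of -0.66 at 0.97, so at this depth no difference between arms could be shown at these peaks.

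**Figure D5:**
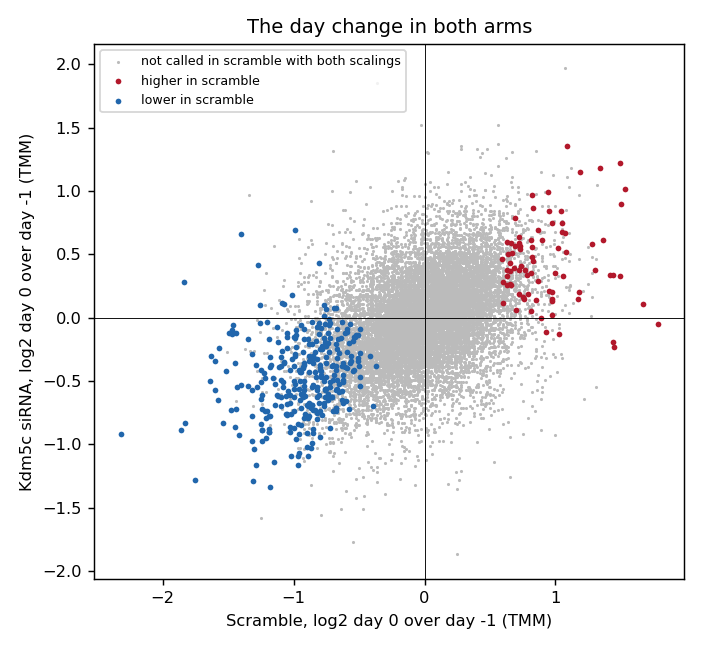
Each point is a matched peak tested in both arms: the log2 change (TMM), day 0 over day -1, in scramble (x axis) and with Kdm5c siRNA (y axis). Of the coloured peaks, called in scramble with both scalings, 74 of 79 that rose lie above 0 on the y axis and 293 of 307 that fell lie below it.

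The mean mitochondrial signal was lower on day 0 in both arms. The ratio of mitochondrial to nuclear counts went from 12.2 ± 1.64 to 8.17 ± 1.69 (SD, n = 4 each) in scramble, a log2 difference of -0.59, and from 9.52 ± 2.67 (n = 4) to 5.59 ± 1.62 (n = 3) with Kdm5c siRNA, or -0.77. A nuclear peak at 1:24611608-24616138, in a known nuclear copy of mitochondrial DNA and over 10 kb from any gene, had 1219, 1374, 1731 and 1712 on day -1 and 945, 943, 897 and 1415 on day 0 in scramble. These densities ranked as the mitochondrial shares did within day -1 but not within day 0. The libraries of the days overlapped at this peak. Its log2 change was -0.52 (SE 0.12, edgeR adjusted p = 0.00084) with nuclear totals and -0.35 (0.088) with TMM. With Kdm5c siRNA the peak inside Myo3a at 2:22588662 had 173, 289, 255 and 165 on day -1, with mitochondrial shares of 88.2, 92.6, 91.7 and 87.6%. On day 0 it had 123, 171 and 82.2, with shares of 86.7, 86.8 and 78.8%. The part of mitochondrial reads in the changes at this and other nuclear peaks was not tested.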

How the data were processed

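ATAC-seq counts in 8 scramble and 7 Kdm5c siRNA libraries of days -1 and 0 were used. Day -2 libraries were not used here. Per the submitters' processing notes, the genome was GRCm38 (mm10) and the tools included DESeq2 1.24.0, HTSeq 0.9.1, MACS2 2.1.1, Bowtie2 2.2.9 and cutadapt 2.3. The authors deposited raw counts per peak in a table for each day, over that day's own peaks. The deposited normalised signal, counts divided by size factors, was used for the authors' gene names only.

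Nuclear peaks were matched 1 to 1 at 50% reciprocal overlap (bedtools 2.31.1). The test was edgeR's quasi-likelihood F test on counts (edgeR 4.0.16, R 4.3.3), with nuclear totals and peak width as offsets, edgeR's low-count filter and Benjamini-Hochberg adjustment over all tested peaks (threshold 0.05). All adjusted p-values are from edgeR unless DESeq2 1.42.0 is named. Library shares were compared by exact permutation (scipy 1.17.1). The code was tested on simulated data. Groups came from the labels. Named peaks were called with nuclear totals and TMM, did not overlap between days and had similar widths and at least median abundance; up to 12 promoter-class and 6 other peaks per direction were taken by size of change. Results at 1 such peak and 1 list gene are not reported here. The members, rules and 22 gene lists were chosen with earlier results of these data known. Alternatives covered scaling, width, matching, filters, DESeq2, a replicate block and leaving out each library. Nuclear depth per library sets the precision.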

Additional observations from a re-analysis of the deposited data

Results flagged for a closer look

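The check for outlying libraries took 50 groups of 4 library values and did not cover every list gene or further peak. Of these groups, 2 held a library that stood apart from the other 3 by Dixon's ratio, whose chance rate is about 1 in 20 groups. At Lrrc8b, replicate 3 of day 0 was low, with 57.0 against 91.0 to 93.2 in the others. At Tacc2, replicate 3 of day 0 was high, with 44.0 against 30.5 to 32.5. Both values lay below every day -1 library of the same peak, which the naming rule required. Cebpb was not among the groups checked, and replicate 2 of day -1 was low there, with 63.6 against 114 to 123 in the others. Nor was the peak at 1:24611608, where replicate 4 of day 0 was high, with 1415 against 897 to 945.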

How the results depend on the processing

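The 1115 calls with nuclear totals became 594 with TMM, 596 with RLE, 738 with totals over matched peaks, 514 with a loess on abundance, 651 with DESeq2, 1396 without width (279 higher and 1117 lower, 350 of them shared) and 1887, mostly higher, with mitochondrial counts in the total. Stricter matching gave 292 at 80% overlap and 148 for widths within 1.1 times, with fewer peaks tested. Among 4 alternatives chosen after seeing the data, TMM with similar widths gave 72 and TMM with a loess on the width ratio 230. Leaving out 1 library gave 682 to 1011 with nuclear totals, 284 to 553 with TMM, and 150 to 363 with Kdm5c siRNA, where TMM gave 256. The difference between arms had 0 to 1 calls. Without width in the fit, the change relative to the median peak was 0.12 at Mdm2, 0.13 at Gas1, 0.04 at Usp18, 0.07 at Hk2, 0.40 at Hspa4, 0.32 at Lss and -0.02 at Klf2. None of these was called in that fit. The difference in matched-peak share ranged from -3.48 to -3.15 without a library, where 3 against 4 cannot reach the threshold, and was -1.89 at 80% overlap. That in promoter-class share ranged from -0.208 (without day -1 replicate 1) to 0.644, was -0.0675 without day 0 replicate 4 and 1.0 over matched peaks per kb. The cause of these shifts was not tested. The replicate numbers did not pair the samples (correlations from -0.046 to 0.009), and a replicate block gave 969 calls. Of 22 peaks taken by the naming rule, which itself required a TMM call, 22 kept their call with RLE, totals over matched peaks, the loess on abundance and the stricter filter, 16 with DESeq2 and 14 without width.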
